A study of Rattus norvegicus and Mus musculus with 74 samples.

Results

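Fibroblast growth factors (FGF), bone morphogenetic proteins (BMP) and growth differentiation factors (GDF) are secreted morphogens and their close relatives, and their genes were followed through 4 histone marks in the brain cortex of rats and mice. The members were taken by name alone: every gene symbol made of Fgf, Bmp or Gdf and a number, with or without a final a or b, that the region tables list. This gave 42 genes in rat, of 20110 genes listed, and 41 in mouse, of 23362. Bmp15 was listed in the rat table only, and Fgf7 is not analysed here. A gene listed beside several regions was given the region with the highest mean signal over all libraries of its species, for the members and for all other genes alike.

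The study measured histone marks by chromatin immunoprecipitation and sequencing (ChIP-seq), in which an antibody to a modified histone pulls down the DNA wrapped on it. Each mark had 3 groups of 3 libraries in each species, 72 libraries in all, and the 2 pooled inputs were not used here. In Sprague-Dawley rats the groups were healthy controls given vehicle, animals exposed before birth to valproic acid (VPA, injected during pregnancy) and given vehicle, and VPA-exposed animals given TAK-418. In C57BL/6J mice the groups were healthy controls given vehicle, animals exposed before birth to poly I:C and given vehicle, and poly I:C-exposed animals given TAK-418. Both exposures are used in rodents to model neurodevelopmental disorders. VPA, an antiepileptic drug, also inhibits histone deacetylases, and poly I:C, an artificial RNA duplex, provokes an antiviral immune response in the mother. TAK-418 inhibits LSD1 (the product of Kdm1a), an enzyme that removes methyl groups from mono- and dimethylated histone H3. The sources used here state no dose, age or sex, and no group combined a healthy animal with TAK-418. Species, exposure and, for H3K4me3 and H3K27me3, antibody lot differ together and cannot be told apart.

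FGFs act mostly as secreted ligands of the FGF receptor tyrosine kinases with heparan sulfate as cofactor, while the endocrine FGFs (Fgf15, Fgf21 and Fgf23) need a Klotho protein. Fgf11 to Fgf14 are the exception: they stay inside the cell and bind voltage-gated sodium channels of neurons. BMPs and GDFs belong to the TGF-beta superfamily and signal through paired serine/threonine kinase receptors to SMAD transcription factors. Bmp1 shares the name only and is a metalloprotease that cleaves procollagens and the BMP antagonist chordin. H3K4me3 and H3K9Ac mark active promoters, H3K27me3 is laid down by the Polycomb complex PRC2 on repressed genes, and H3K9me3 marks heterochromatin. Many genes of embryonic patterning carry H3K4me3 and H3K27me3 together in stem cells, a state known as bivalent chromatin.

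The promoters below show the DNA before the start of some members, with at least 1 gene for each of 4 patterns of H3K4me3 and H3K27me3 percentiles met in rat control cortex. Each line holds the 250 bases before the gene start, written 5′ to 3′ on the gene's own strand, from RefSeq on the rat build GRCr8, with every CG dinucleotide (CpG) in capitals. Fgf8 (chr1:254539606-254539855, minus strand) and Fgf16 (chrX:74882745-74882994, plus strand) were high in H3K27me3 and low in H3K4me3. Fgf9 (chr15:36327108-36327357, plus strand) was high in both marks, Fgf12 (chr11:85501697-85501946, plus strand) was high in H3K4me3 and near the middle in H3K27me3, and Bmp15 (chrX:18840693-18840942, plus strand) was low in both.
Fgf8: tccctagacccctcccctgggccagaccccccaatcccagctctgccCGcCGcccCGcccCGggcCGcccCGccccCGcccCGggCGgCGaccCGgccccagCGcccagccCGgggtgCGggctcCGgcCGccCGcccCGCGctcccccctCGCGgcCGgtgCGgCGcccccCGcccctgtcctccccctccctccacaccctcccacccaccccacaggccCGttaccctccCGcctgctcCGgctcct
Fgf16: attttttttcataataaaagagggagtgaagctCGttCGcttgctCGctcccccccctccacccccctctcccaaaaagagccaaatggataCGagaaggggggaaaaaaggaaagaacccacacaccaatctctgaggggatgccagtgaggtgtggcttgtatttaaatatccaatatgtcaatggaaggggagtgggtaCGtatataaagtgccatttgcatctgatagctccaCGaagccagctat
Fgf9: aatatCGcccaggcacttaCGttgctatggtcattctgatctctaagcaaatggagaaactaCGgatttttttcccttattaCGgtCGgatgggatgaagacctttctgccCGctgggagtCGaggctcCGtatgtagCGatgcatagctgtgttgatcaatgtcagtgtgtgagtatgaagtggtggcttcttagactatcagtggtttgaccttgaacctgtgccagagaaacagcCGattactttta
Fgf12: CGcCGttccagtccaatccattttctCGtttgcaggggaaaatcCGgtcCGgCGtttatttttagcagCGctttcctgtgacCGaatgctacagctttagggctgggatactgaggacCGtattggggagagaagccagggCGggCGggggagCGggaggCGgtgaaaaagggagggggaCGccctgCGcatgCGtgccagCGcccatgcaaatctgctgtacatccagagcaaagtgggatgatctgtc
Bmp15: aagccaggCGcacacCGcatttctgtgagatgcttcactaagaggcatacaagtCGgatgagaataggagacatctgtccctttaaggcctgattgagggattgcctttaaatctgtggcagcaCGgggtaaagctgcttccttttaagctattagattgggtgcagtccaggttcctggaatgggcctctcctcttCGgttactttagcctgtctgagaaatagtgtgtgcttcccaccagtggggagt
The printed stretch holds 28 CpG in Fgf8, 17 in Fgf12, 10 in Fgf9, 6 in Fgf16 and 5 in Bmp15. Fgf8 and Fgf16, high in H3K27me3 and low in H3K4me3 by percentile, thus lie near both ends of this small set. Intervals of both marks were nevertheless called for these 2 genes. The percentiles belong to the signal regions and not to the printed stretch. RefSeq promoters were found for 32 of the 42 rat members. Counted over 300 bases (250 before and 50 after the start), the median was 13.5 CpG in the members against 7 in all 27457 promoters of that length. Of the 32 members, 20 held 10 or more CpG (62.5% against 44.14% of all promoters), from 48 in Fgf18 to 2 in Gdf9. The letters TATAAA, on either strand, were in 5 members (Fgf5, Fgf16, Fgf21, Gdf2 and Gdf11; 15.62% against 14.26%). Across the 32 members the CpG count had a Spearman correlation of 0.39 with the H3K27me3 percentile and 0.05 with the H3K4me3 percentile, given as a description. The signal regions themselves are given on rn5 (rat) and mm10 (mouse), and no position was carried from one build to another.

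Values are the mean signal over a region as the authors deposited it, where 0 stands for no signal and the other values are 1 or more. The tables give no read counts, so the depth behind each value is unknown. To compare marks, each gene was also given its percentile among all listed genes of the species. As a check of the tissue, the genes of a list of cortical excitatory neuron markers had a median H3K4me3 percentile of 68.8 in rat and 66.5 in mouse controls, against 28.4 and 14.2 for a list of genes absent from brain. Medians of the lists of inhibitory neuron, astrocyte, oligodendrocyte and microglia markers were below the middle in both species. They were 34.6, 39.2, 38.37 and 43.7 in rat and 42.6, 35.4, 42.35 and 33.7 in mouse. A list of meninges and vessels genes (n = 3) was at 43.9 in rat and 27.6 in mouse, and a choroid plexus list (n = 2) at 9.5 in rat. In rat the check thus did not set the inhibitory and glial lists above meninges and vessels. It rests on the excitatory list (n = 5 genes) against the genes absent from brain (n = 2 genes). Some libraries stood apart over all regions. Rat H3K9Ac vehicle replicate 3 had a median signal of 8.81, against 14.37 and 15.59 in the other vehicle libraries. Mouse control replicate 1 was high for H3K4me3 (16.09 against 9.03 and 8.42) and for H3K9me3 (5.78 against 2.68 and 2.26). Mouse H3K27me3 vehicle libraries had medians of 7.67, 5.64 and 2.57. Nothing in the labels ties the 3 libraries of a group to separate animals or to one, so a p-value measures the spread between libraries, which may be technical. In whole cortex, a mark on more cells and more of the mark per cell cannot be told apart.

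The 42 rat members lay on 38 regions and the 41 mouse members on 37, since neighbours shared regions. Fgf3, Fgf4 and Fgf15, clustered side by side, shared 1 region in rat (chr1:224867400-224978999, rn5) and in mouse (chr7:144728400-144962599, mm10), and Gdf2 and Gdf10 shared 1 in each species. Bmp1 and Fgf17 shared a region of 143599 bp in rat, and Gdf1 and Gdf15 shared one of 350799 bp in mouse that lists 21 genes. Values of such genes are one measurement, and those of the long regions are shared with genes that are not morphogens. The region covered the gene start in 27 of 42 rat members (64.29%, against 65.83% of all genes) and 35 of 41 mouse members (85.37% against 68.72%). It held a CpG island in 32 rat members (76.19% against 68.07%) and 33 mouse members (80.49% against 69.68%). The region nearest to the gene start was another one in 10 rat and 4 mouse members. All distances to a gene start given here run from the centre of the region, so the edge of a long region lies closer.

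In control cortex the morphogen genes stood high in H3K27me3 and below the middle in the active marks, in both species. The median member was at percentile 84.88 ± 0.228 (SD over 3 control libraries) of H3K27me3 in rat and 86.78 ± 0.655 in mouse. For H3K4me3 the median was 38.1 ± 2.53 in rat and 34.49 ± 0.367 in mouse, and for H3K9Ac 34.94 ± 0.515 and 31.77 ± 0.306. H3K9me3 was near the middle and poorly fixed between libraries, at 42.4 ± 13 and 42.25 ± 6.04. Above the 90th percentile of H3K27me3 were 18 of 42 rat members and 17 of 41 mouse members. High H3K27me3 was not particular to these genes: the excitatory neuron list (n = 5 genes) was at 92.1 in rat and 96.7 in mouse. The list of inhibitory neuron markers (n = 2 genes) was at 98.5 and 96.8. Restricted to the 12 members in each species that are the only gene of a region covering their start, the median H3K27me3 percentile was 95.57 in rat and 84.51 in mouse, beside 51.12 and 46.08 for all genes of that kind. These levels were compared between genes per length of region, since the signal is a mean over the region.

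**Figure D1:**
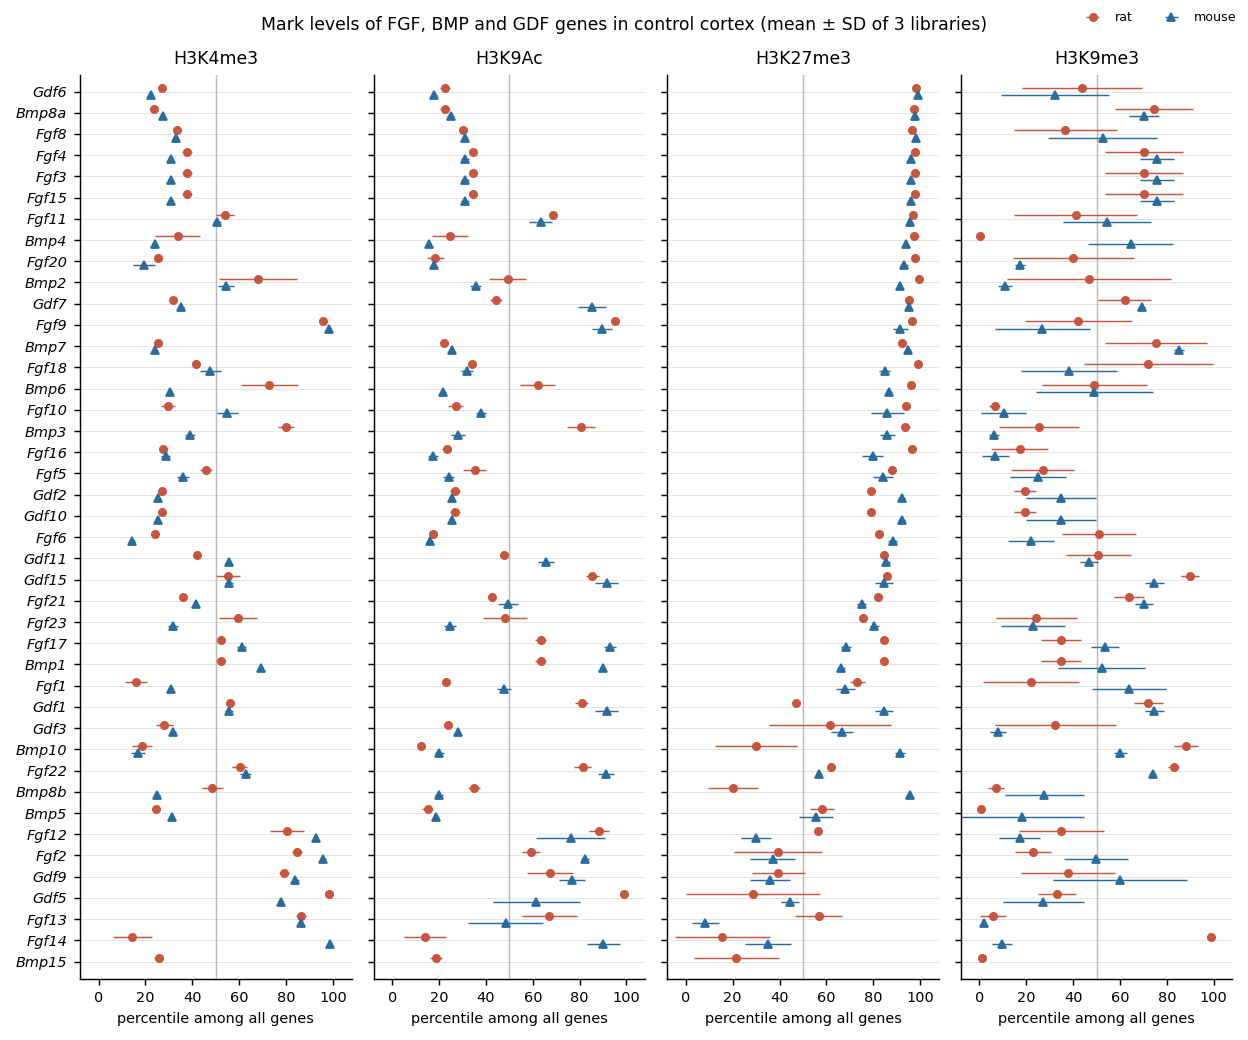
Percentile of each member among all listed genes of its species (x axis) for each of the 4 marks (panels), with 1 line per member ordered by H3K27me3. Points are the mean of 3 control libraries and bars the SD, with circles for rat and triangles for mouse; most members stand right of the middle in H3K27me3 and left of it in H3K4me3 and H3K9Ac.

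The intracellular FGFs had, as a group, more H3K4me3 and less H3K27me3 than the secreted ligands, with a wide range among them. Their median H3K4me3 percentile (n = 4 genes) was 66.65 in rat and 89.56 in mouse, against 37.83 and 31.92 for the other members, and their median H3K27me3 percentile was 56.53 and 32.56, against 86.13 and 88.29. Their H3K27me3 percentiles ran from 15.54 to 97.17 in rat and from 8.25 to 95.65 in mouse. The rat medians include the regions of Fgf13 and Fgf14, which lay inside the gene and did not cover its start. Gdf9, a secreted ligand, had a like pattern, with percentiles of 84.0 for H3K4me3 and 36.1 for H3K27me3 in mouse. This split was described and not tested, since genes are not replicates. Fgf13, an X-linked member that also binds microtubules, had an H3K4me3 signal of 18.99, 27.36 and 25.95 in the rat control libraries (24.1 ± 4.48) and 24.8, 12.8 and 12.4 in mouse. Its H3K27me3 signal was 2.56, 4.20 and 1.49 in rat and 1.56, 1.83 and 1.34 in mouse. Fgf13 was thus high in the active mark (percentiles 86.3 and 86.3) and its mouse H3K27me3 percentile of 8.25 was the lowest of the mouse members. Its rat region lay inside the gene, 32721 bp from the gene start, so the rat value does not describe the promoter. The mouse region of Fgf13 covered the gene start. Fgf12, the sodium channel partner expressed widely in neurons, had 15.1, 30.0 and 20.8 of H3K4me3 in rat and 30.2, 15.1 and 14.1 in mouse, with H3K27me3 at percentiles 56.3 and 29.9. Fgf14, mutated in a form of spinocerebellar ataxia, differed between the species. In mouse its region (chr14:124669000-124679799, mm10) had the highest H3K4me3 of the members, at 39.4, 20.3 and 19.6 (26.4 ± 11.3). In rat the region with its highest signal was 1599 bp long, 148320 bp from the gene start and inside the gene, with an H3K4me3 signal of 1.67, 1.00 and 1.22, so the rat value does not describe the promoter. Fgf11 was the relative at the other end: its H3K27me3 percentile was 97.2 in rat and 95.6 in mouse, with signals of 13.1, 18.8 and 5.95 in the rat controls and 6.12, 7.45 and 7.88 in the mouse controls.

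Among the secreted FGFs, Fgf9, a glial and neuronal growth factor, was the one member above the 90th percentile of H3K4me3 in both species, and it was above it in H3K27me3 in both as well. Its H3K4me3 signal was 24.3, 42.4 and 33.3 in the rat controls (33.4 ± 9.02; chr15:42173000-42184399, rn5) and 39.4, 20.0 and 17.3 in the mouse controls (25.6 ± 12.1; chr14:58066600-58081799, mm10). Its H3K27me3 signal in rat was 12.1, 17.8 and 5.63. Its subfamily relatives, Fgf16 and Fgf20, lay at the other end of H3K4me3, with H3K27me3 percentiles of 96.5 and 98.0 in rat and 79.8 and 93.0 in mouse. Fgf16, a heart growth factor, had 2.63, 4.06 and 2.88 of H3K4me3 in rat, and Fgf20, a substantia nigra growth factor, 1.82, 2.85 and 2.33. All 3 Fgf9 libraries were above all libraries of both relatives.

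Fgf8, the organiser signal that patterns the forebrain and midbrain, stood at percentile 96.4 of H3K27me3 in rat (12.3, 15.3 and 5.66; chr1:272882800-272940799, rn5) and 98.2 in mouse (7.10, 10.8 and 11.2; chr19:45706000-45755199, mm10). Its H3K4me3 was at percentile 33.3 and 33.0. Fgf18, of the same subfamily and a regulator of skeletal growth, had an H3K27me3 signal second to Bmp2 among rat members (19.7, 23.8 and 9.83; 17.8 ± 7.17) and was at percentile 85.0 in mouse. The centre of its region lay 36281 bp (rat) and 25499 bp (mouse) upstream. The region was 63599 bp long in rat and 32199 bp in mouse and did not cover the gene start in either species. The cluster of Fgf3, Fgf4 and Fgf15 was at 97.7 and 96.2 of H3K27me3, with 14.6, 18.9 and 6.96 in the rat controls. In Fgf8, Fgf18 and this cluster, rat control replicate 3 was the lowest and replicate 2 the highest. Fgf2, a growth factor of glia and neural stem cells, was high in H3K4me3 (percentiles 84.7 and 95.9) and below the middle in H3K27me3 (39.5 and 37.1), but its region lay 65592 bp (rat) and 69346 bp (mouse) downstream of the gene start. At the region nearest to its start, the H3K27me3 percentile was 87.4 and 89.5 and the H3K4me3 percentile 61.8 and 35.9, so the position of Fgf2 depended on the region taken. Its relative Fgf1 was low in rat H3K4me3, at 1.38, 1.26 and 1.14, in a region inside the gene that did not cover its start. Fgf22, a presynaptic organiser, was above the 80th percentile of H3K9Ac in both species (81.3 and 91.1), with H3K27me3 at 62.0 and 56.9. Its rat region, 94399 bp long, had its centre 48520 bp upstream, did not cover the gene start and lists 9 genes. The mouse region of Fgf22 was 188799 bp long and lists 15 genes, so these levels are shared with other genes.

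Of the BMPs, Bmp2, a ligand of bone and neural crest that also acts in neuronal differentiation, had the highest H3K27me3 of the rat members. Its signal was 22.5, 36.3 and 9.56 in the rat controls (22.8 ± 13.4, percentile 99.4; chr3:132817400-132826399, rn5) and 4.24, 6.47 and 6.73 in mouse (percentile 91.25; chr2:133546600-133560399, mm10). Its H3K4me3 was also above the middle, at percentile 67.9 in rat and 54.4 in mouse. Bmp4, its closest relative and a dorsalising signal of the neural tube, was at percentiles 97.6 and 93.9 of H3K27me3 with less H3K4me3 (33.7 and 24.1). The rat Bmp4 region (chr15:24739800-24740199, rn5) was 399 bp long and lay 1274 bp upstream, without the gene start. Bmp7 and Bmp8a were above the 90th percentile of H3K27me3 in both species, Bmp8a with 7.31, 10.1 and 9.90 in the mouse controls. Bmp6, an iron-regulating ligand, was high in rat in both H3K4me3 (72.8) and H3K27me3 (96.1). In mouse its H3K27me3 percentile was 86.8 and its H3K4me3 percentile 30.4. Bmp8b, in rat, was low in H3K27me3 (percentile 20.0), but the region nearest to its start was at 97.4. Bmp5 and Bmp10 carried little of either active mark: Bmp10, a heart ligand, had an H3K4me3 signal of 1.37, 1.14 and 1.68 in rat and 1.92, 1.65 and 1.49 in mouse. The Bmp10 region did not cover the gene start in either species, and another region was nearer to it. Bmp15, the oocyte ligand, had 1.286, 1.077 and 1.413 of H3K27me3 and was low in all 4 marks. The region of the protease Bmp1 was above the middle in H3K4me3 in both species (52.4 and 69.4). In rat this region was 143599 bp long and lists 10 genes, and another region was nearer to the gene start. In mouse it lay downstream (centre at 52561 bp), did not cover the gene start and lists 4 genes. These levels are thus shared with other genes.

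The GDFs covered the full range. Gdf6, a ligand of joint and eye development, had the highest H3K27me3 of the mouse members, at 8.56, 12.6 and 13.4 (11.5 ± 2.6; chr4:9828600-9864399, mm10), and 16.9, 21.9 and 8.52 in rat (chr5:27775600-27807399, rn5). Its relative Gdf5 lay at the other end. In rat it had the highest H3K4me3 of all members (40.4, 41.2 and 41.0; 40.9 ± 0.393) and the highest H3K9Ac (24.7, 18.6 and 14.2), with H3K27me3 at 1.00, 3.75 and 1.23. At the region nearest to the Gdf5 start, the H3K4me3 percentile was 54.1 in rat and 43.7 in mouse and the H3K27me3 percentile 72.6 and 74.1, so this contrast with Gdf6 rested on the region taken. Gdf7, a roof plate signal, was above the 95th percentile of H3K27me3 in both species (95.1 and 95.3). Gdf11, which limits neuron production in the olfactory epithelium and retina, was at 84.8 and 85.7. Gdf9, the oocyte partner of Bmp15, was high in H3K4me3 (79.1 and 84.0). In rat its nearest region was at 15.9. Gdf15, a stress-induced circulating ligand, was in rat above the 85th percentile of H3K9Ac, H3K27me3 and H3K9me3. In mouse it shares its long region with Gdf1, a ligand of left-right patterning that is read from one transcript with Cers1.

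By called intervals, counted present in at least 2 of 3 control libraries, 26 of 42 rat members carried both H3K4me3 and H3K27me3 (61.9%, against 30.55% of all genes), and 25 of 41 mouse members did (60.98% against 23.68%). Such a pair of intervals in one region may come from different cells of the cortex or from different parts of the region. The regions of the members were longer, with a median of 15699 bp in rat and 28799 bp in mouse, against 11999 and 15799 bp for all genes. The shares were not matched for length. H3K4me3 without H3K27me3 was found in 8 rat members (Bmp8b, Fgf2, Fgf12, Fgf13, Gdf1, Gdf3, Gdf5 and Gdf9) and 11 mouse members (Bmp1, Bmp5, Fgf1, Fgf2, Fgf12, Fgf13, Fgf14, Fgf22, Gdf3, Gdf5 and Gdf9). H3K27me3 alone was found in Bmp4, Bmp8a, Fgf1 and Fgf20 in rat and in Bmp8a, Fgf6, Fgf20 and Gdf6 in mouse. Neither mark was called for Bmp5, Bmp10, Bmp15 and Fgf14 in rat and for Bmp10 in mouse. Among the 12 members that are the only gene of a region over their start, both marks were called in 9 in rat (75% against 28.74% of all such genes) and 6 in mouse (50% against 15.83%). The share with both marks was thus above that of the background also where a region holds 1 gene.

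**Figure D2:**
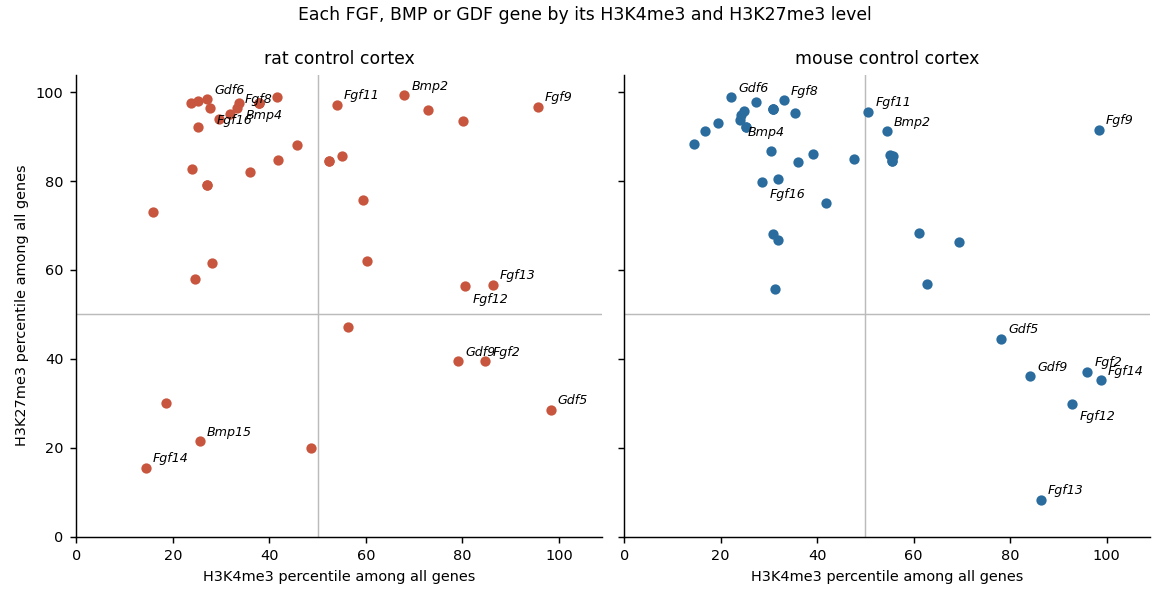
H3K27me3 percentile (y axis) against H3K4me3 percentile (x axis) in control cortex, 1 point per member, rat left and mouse right. Points gather at the top left; Fgf9 stands above the 90th percentile of both marks in both panels, with Bmp2, Bmp3 and Bmp6 nearest to it in rat, and Fgf12 and Fgf13 stand at the right with lower H3K27me3.

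The order of the members was partly shared between rat and mouse. Over the 41 genes in both tables, the Spearman correlation of the control percentiles was 0.66 for each active mark, 0.67 for H3K27me3 and 0.54 for H3K9me3 (Pearson 0.67 for each active mark, 0.63 for H3K27me3 and 0.54 for H3K9me3). These are descriptions over genes, some of which share a region. The members above the 90th percentile of H3K27me3 in both species numbered 13: Bmp2, Bmp4, Bmp7, Bmp8a, Fgf3, Fgf4, Fgf8, Fgf9, Fgf11, Fgf15, Fgf20, Gdf6 and Gdf7. H3K4me3 and H3K27me3 were unrelated across the 38 rat regions (Spearman -0.06) and opposed across the 37 mouse regions (-0.65), while over all regions the values were 0.12 and -0.02. The active marks followed each other, with 0.93 between H3K4me3 and H3K9Ac in rat and 0.86 in mouse, near the 0.96 and 0.92 over all regions.

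H3K9me3 intervals were called in 9 of 42 rat members (21.43%, against 18.58% of all genes) and 5 of 41 mouse members (12.2% against 11.09%), shares near those of all genes. Most signals were close to the floor of 1. The highest rat value was that of Fgf14 (3.62, 5.58 and 5.63), at the region inside the gene, where an interval was called in 1 of 9 libraries. Gdf15 (1.99, 3.00 and 2.65) and Bmp10 (2.01, 3.06 and 2.28) followed. In mouse the highest was Bmp7, at 3.89, 2.34 and 2.18, with control replicate 1, high over all regions for this mark, above the other control libraries.

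Comparisons between groups used limma on log2(signal + 1) over all genes with an interval in at least 3 of the 9 libraries of a mark, and a change was called at a Benjamini-Hochberg adjusted p under 0.05 over all genes tested. Every fold change stands on the log2(signal + 1) scale, and for low signals it is smaller than the ratio of the signals. Vehicle against control asks what the prenatal exposure left, TAK-418 against vehicle what the compound did in exposed animals, and TAK-418 against control where treated animals stood; the comparisons share libraries and are not independent. The deposited values were not on one level between libraries: the median change of all genes was 0.88 for rat H3K9Ac vehicle against control as deposited and 0.04 after quantile normalization. Changes below are therefore given beside the median of all genes tested in the same comparison. Some counts of called members stand without the share of all genes called. These are the counts with 1 library left out, with the 6 libraries compared alone, with a replicate block, with no interval filter or at the nearest region. They show how far calls moved with the setting and are not read as a result about the members.

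For rat H3K4me3, 2 of 38 members tested were called higher in VPA-exposed vehicle animals than in controls (1.64% of all genes tested were), namely Bmp4 and Bmp2. Bmp4 had a signal of 2.00, 10.5 and 4.67 in the controls, 11.2, 10.1 and 12.1 in the vehicle libraries and 25.3, 12.1 and 15.3 in the TAK-418 libraries. The lowest vehicle library lay under the highest control library, so the groups overlapped. With limma, Bmp4 was higher by 1.06 (SE 0.245, adjusted p = 0.0207) and Bmp2 by 0.83 (SE 0.231, adjusted p = 0.0385), beside a median of 0.42 over the members and 0.41 over all genes. Bmp2 had 10.2, 28.95 and 13.1 in the controls and 26.4, 27.6 and 32.7 in the vehicle libraries, again with control replicate 2 inside the vehicle range. Both calls were lost under median centring and quantile normalization (0.0% of all genes called in each), with no interval filter, with the replicate number as a block, and without any one of control replicates 1 and 3, vehicle replicates 1 to 3 or TAK-418 replicate 2. The Bmp2 call was also lost without TAK-418 replicate 1. Without control replicate 2, 25 members were called, and without TAK-418 replicate 2, whose group shares the estimate of the spread, 22 others were. The number of calls thus moved with single libraries and with the level of whole libraries. In 20 members, all higher, the groups did not overlap, as in 63.3% of all genes.

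TAK-418 against vehicle gave no called member for rat H3K4me3 (0.137% of all genes were called higher), with 8 members at an unadjusted p under 0.05. The member nearest to a call was Fgf16. It had 4.72, 4.54 and 5.79 in the vehicle libraries and 11.6, 6.85 and 8.59 in the TAK-418 libraries, with no overlap, beside 2.63, 4.06 and 2.88 in the controls. The change was 0.71 (SE 0.180), with a limma adjusted p of 0.0515, against a median of 0.21 over all genes. Bmp8a was next, with 2.45, 2.20 and 2.52 against 4.44, 2.73 and 4.74 (0.53, SE 0.138, limma adjusted p = 0.0647). In 3 members the groups did not overlap, with TAK-418 higher (5.55% of all genes). Fitted on the 6 libraries compared alone, Fgf16 was called, and without TAK-418 replicate 2 there were 3 calls.

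TAK-418 against control gave 34 of 38 members higher for rat H3K4me3, and 85.8% of all genes were called as well, so the share of members (4 were not called: Bmp15, Fgf6, Gdf3 and Gdf9) was near that of the genome. The members with the smallest p were Fgf16 (higher by 1.24, limma adjusted p = 4.971e-09) and Fgf10, a ligand of limb and lung budding. Fgf10 had 2.57, 6.03 and 3.57 in the controls and 9.05, 8.26 and 11.9 in the TAK-418 libraries, without overlap (higher by 1.13, limma adjusted p = 8.528e-07). The members' median was 0.70, beside 0.61 over all genes. The 2 groups were apart in 24 members, all higher (57.6% of all genes). No member was called after median centring or quantile normalization (0.0% of all genes in each), and 15 were without TAK-418 replicate 1. The signal of most genes, members or not, was thus higher in these libraries.

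For rat H3K9Ac, all 33 members tested were called higher in VPA-exposed vehicle animals than in controls, as were 96.5% of all genes. Their median change was 0.79, beside 0.88 over all genes. Bmp2 had 6.67, 5.33 and 4.37 in the controls, 16.4, 15.6 and 11.4 in the vehicle libraries and 5.71, 9.75 and 6.56 in the TAK-418 libraries. Every vehicle value was above every value of the other groups. With limma, Bmp2 was higher in vehicle by 1.26 (SE 0.259, adjusted p = 0.000267) and Gdf15, with 11.8, 8.68 and 9.36 against 29.4, 30.6 and 16.2, by 1.23 (SE 0.264, adjusted p = 0.000301). No overlap between vehicle and control was seen in 31 members (94.3% of all genes). After median centring 7 members were called higher (Bmp2, Fgf9, Fgf11, Fgf21, Fgf22, Gdf1 and Gdf15; 11.9% of all genes) and Bmp7 lower (10.6% of all genes). After quantile normalization none was (0.0586% of all genes higher), so that a change of single morphogen genes relative to the genome was called for few of them.

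TAK-418 against vehicle gave 8 of 33 members lower for rat H3K9Ac, where 10.4% of all genes were called lower: Bmp2, Bmp3, Bmp6, Fgf9, Fgf10, Fgf12, Fgf13 and Gdf15. Bmp2 changed by -0.90 (SE 0.259, limma adjusted p = 0.0261), with no overlap between its vehicle and TAK-418 libraries. Fgf12 had 13.0, 8.80 and 10.1 in the controls, 24.7, 27.5 and 16.6 in the vehicle libraries and 11.5, 14.4 and 10.4 in the TAK-418 libraries (-0.85, limma adjusted p = 0.0341). Fgf9 had 35.0, 37.1 and 19.6 in the vehicle libraries and 14.4, 20.2 and 14.3 in the TAK-418 libraries, where one TAK-418 library lay above the lowest vehicle library (-0.83, limma adjusted p = 0.0370). In each of these, vehicle replicate 3, low over all regions, was the lowest vehicle library. Without it 33 members were called lower, without TAK-418 replicate 2 there were 5, and without any one of the other 7 libraries, or with the 6 libraries compared alone, none was. After median centring Bmp3, Fgf9, Fgf12 and Gdf15 were called lower (8.16% of all genes), and after quantile normalization none (1.67% of all genes). The members' median was -0.54, beside -0.52 over all genes, and groups did not overlap, lower, in 10 members (20.0% of all genes). TAK-418 against control gave no called member (0.0% of all genes), with 2 members at an unadjusted p under 0.05 in limma, Bmp8a (0.54) and Gdf7 (0.51), each at an adjusted p of 0.285. All TAK-418 libraries were above all control libraries in 16 members (51.8% of all genes). Leaving out vehicle replicate 3 gave 19 calls there, and fitting the 6 libraries compared gave 13.

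**Figure D3:**
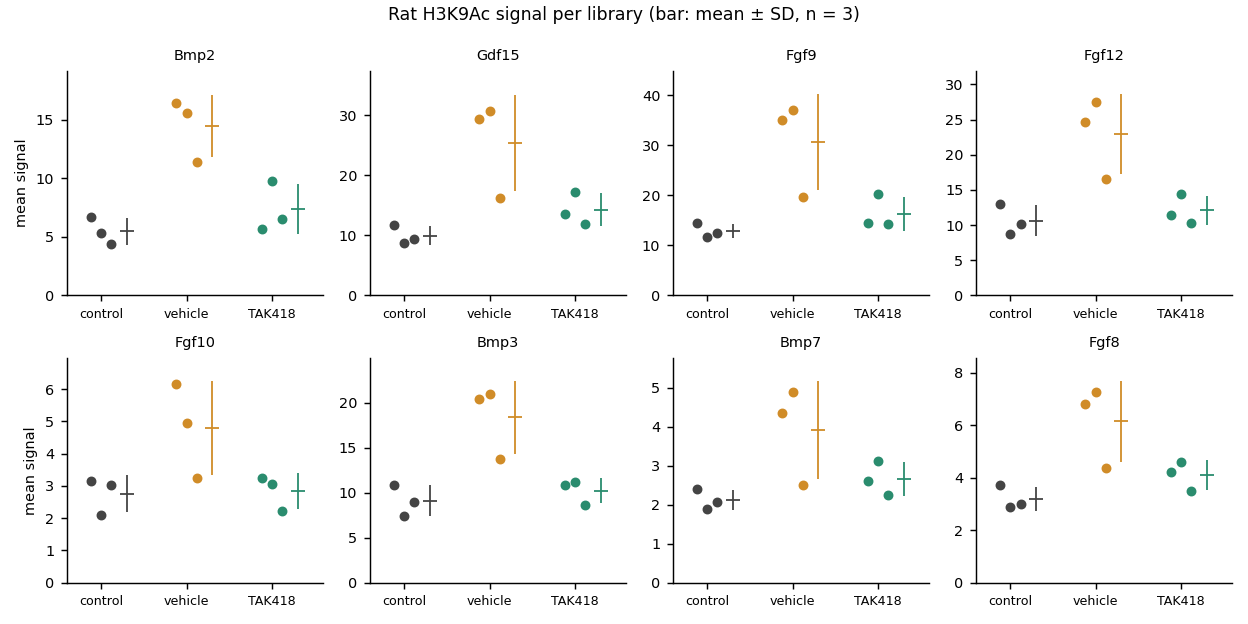
H3K9Ac signal (y axis, linear) in each rat library for 8 members, by group (control, vehicle after VPA, TAK-418 after VPA); points are libraries, bars the mean and error bars the SD (n = 3). In Bmp2 all vehicle libraries, at 11.4 to 16.4, lie above the control and TAK-418 libraries, and in most members 1 vehicle library lies well under the other vehicle libraries.

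No rat member was called for H3K27me3 in any of the 3 comparisons: 0 of 31 members tested and 0.0% of all genes were called, and no member reached an unadjusted p under 0.05 in limma. The spread between libraries was wide for this mark, as in Gdf6, with 16.9, 21.9 and 8.52 in the controls, 15.2, 22.1 and 12.8 in the vehicle libraries and 27.3, 12.2 and 13.6 in the TAK-418 libraries. For rat H3K9me3, 2 of 12 members tested were called higher in vehicle than in control, where 45.6% of all genes were. They were Fgf23, the bone hormone of phosphate balance, and Fgf6, a muscle growth factor. Fgf23 had 1.502, 1.25 and 1.67 in the controls and 2.12, 2.16 and 2.08 in the vehicle libraries, without overlap (0.34, SE 0.0897, limma adjusted p = 0.0130), and Fgf6 was at 0.29 (SE 0.110, limma adjusted p = 0.0343). The median over all genes was 0.40, above both, and after median centring the changes turned to -0.13 for Fgf23 and -0.18 for Fgf6. No member was called higher then (0.0602% of all genes) or after quantile normalization (0.0%). Leaving out 1 library gave 10 calls without TAK-418 replicate 1, 7 without TAK-418 replicate 3, 2 without vehicle replicate 3 and 0 or 1 without any other. In 10 members, all higher, the groups did not overlap (86.0% of all genes). TAK-418 against vehicle gave none (0.0% of all genes) and 0 at an unadjusted p under 0.05 in limma, with 1 member lower without overlap (0.682% of all genes). TAK-418 against control gave Fgf23 alone (18.1% of all genes; 0.24, limma adjusted p = 0.0495), which turned to -0.21 after centring and -0.014 after quantile normalization, where 0.201% and 0.0% of all genes were called higher. Leaving out any library gave 0 calls there, except 7 without TAK-418 replicate 3. In 2 members, both higher, the groups did not overlap (55.0% of all genes).

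In mouse H3K4me3, no member of 38 was called in any of the 3 comparisons (0.0% of all genes in vehicle against control and in TAK-418 against vehicle, and 0.00573% lower in TAK-418 against control). Vehicle against control had 22 members at an unadjusted p under 0.05 and a smallest limma adjusted p of 0.110. The members with the smallest p were Bmp5, a ligand of skeletal growth, with 5.33, 3.29 and 3.46 in the controls and 2.97, 2.00 and 2.33 in poly I:C-exposed vehicle animals (-0.54), and Gdf7 (-0.56). The Bmp5 groups did not overlap, nor did those of 22 members in all, each lower in vehicle (58.7% of all genes). The median was -0.46 over the members and -0.49 over all genes, and control replicate 1, high over all regions, was the highest library of these members. Without control replicate 3, 27 members were called. TAK-418 against vehicle and against control each had 1 member at an unadjusted p under 0.05. Without overlap were 9 members, higher under TAK-418, in the first (6.71% of all genes) and 6, lower under TAK-418, in the second (26.8% of all genes). Without control replicate 1 the first gave 2 calls.

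Mouse H3K9Ac was called in the other direction from rat H3K9Ac, after another exposure. Of 31 members tested, 22 (on 18 regions) were called lower in poly I:C-exposed vehicle animals than in controls, as were 67.2% of all genes. Fgf10 had 6.17, 4.71 and 4.07 in the controls, 3.22, 2.05 and 3.11 in the vehicle libraries and 2.97, 2.79 and 2.57 in the TAK-418 libraries. The controls lay above both other groups without overlap. With limma, Fgf10 changed by -0.66 (SE 0.193, adjusted p = 0.0290) and Gdf7, at 11.1, 10.0 and 7.63 against 6.36, 3.54 and 5.48, by -0.80 (SE 0.259, adjusted p = 0.0290). The members' median was -0.51, beside -0.56 over all genes, and 23 members were lower without overlap (75.8% of all genes). None was called after median centring or quantile normalization (0.0% of all genes in each). Without control replicate 3 there were 29 calls, without a TAK-418 library or vehicle replicate 1 between 16 and 26, and without any one of control replicates 1 and 2 or vehicle replicates 2 and 3 none. TAK-418 against vehicle gave none (0.0% of all genes) and none at an unadjusted p under 0.05. TAK-418 against control also gave none (0.0%), with 28 members at an unadjusted p under 0.05, a smallest limma adjusted p of 0.0522 and 23 members lower without overlap (75.4% of all genes). Without control replicate 3, 30 members were called.

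For mouse H3K27me3, no member of 31 was called in any comparison (0.0% of all genes each), and in vehicle and TAK-418 against control 0 members were at an unadjusted p under 0.05 in limma. TAK-418 against vehicle had a median of -0.54 over the members and -0.46 over all genes, with 1 member, Fgf16, at an unadjusted p under 0.05 and lower without overlap (0.517% of all genes). Vehicle replicate 3 was low over all regions, and without it 31 members were called lower, a count given without the share of all genes. TAK-418 against control had 18 members lower without overlap (60.7% of all genes). Gdf6, for example, had 8.56, 12.6 and 13.4 in the controls, 20.7, 14.9 and 4.93 in the vehicle libraries and 6.10, 7.17 and 8.20 in the TAK-418 libraries. For mouse H3K9me3 none of the 6 members tested was called in any comparison (0.0% of all genes each), and 0 were at an unadjusted p under 0.05 in limma.

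**Figure D4:**
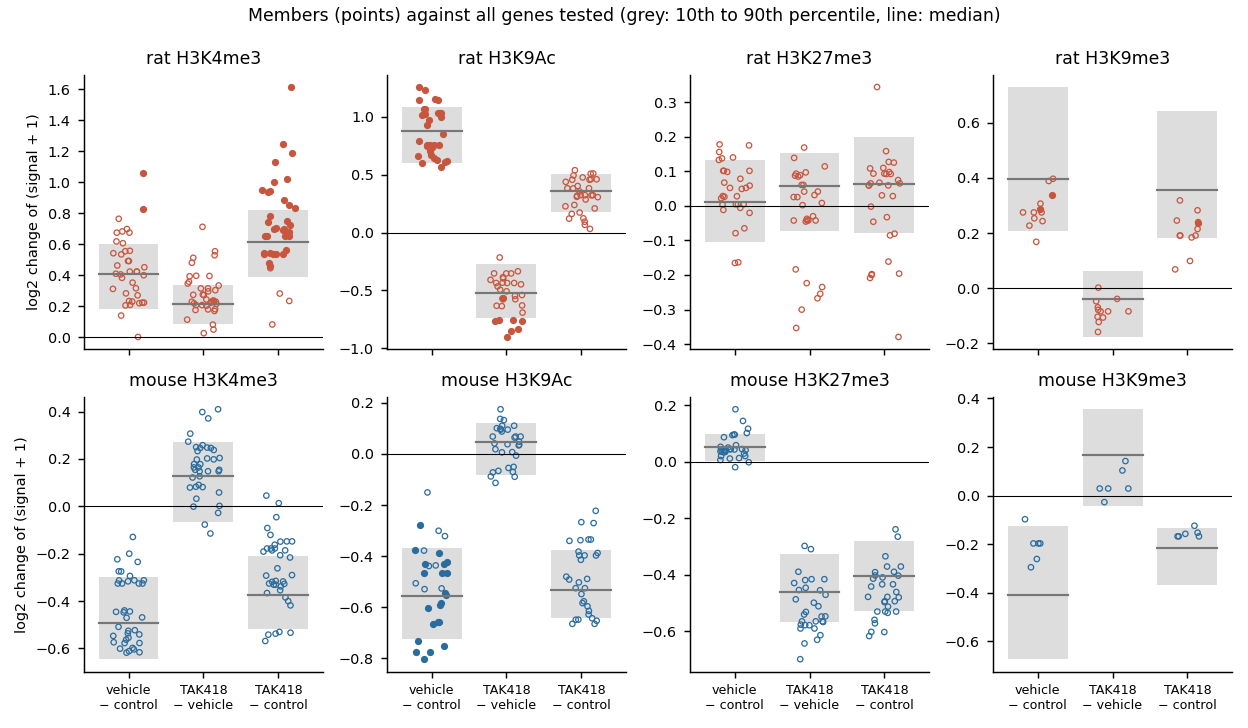
Change on the log2(signal + 1) scale (y axis; scales differ between panels) of each member in 3 comparisons (x axis) for 4 marks and 2 species (panels). Points are members, filled where called at adjusted p under 0.05. The grey box spans the 10th to 90th percentile of all genes tested and the line is their median. Most members lie inside the box except in mouse H3K4me3, TAK-418 against control, where 16 of 38 lie above it and 5 below. In rat H3K4me3, TAK-418 against control, 12 of 38 lie above it and 3 below.

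Bmp2 and Fgf16 were the members that passed a joint cut on H3K4me3 and H3K27me3 in both species, for TAK-418 against vehicle. They were picked after their values were seen, by a change against vehicle above the 90th percentile of all genes for H3K4me3 and below the 10th for H3K27me3, so these positions are a description with no test. In rat, Bmp2, Bmp4, Fgf11 and Fgf16 met this (4 of 30 members with both marks tested, where 3.246% of 6562 genes did). In mouse, Bmp2 and Fgf16 did (2 of 29, where 2.516% of 6082 did). After quantile normalization the same members met it in each species, beside 2.819% and 1.743% of all genes. Over the 3453 genes tested for both marks in both species, 31 met it in both, and Bmp2 and Fgf16 were the members among them. For TAK-418 against control, 7 of 30 rat members (5.258% of all genes) and 7 of 29 mouse members (5.459%) met the same cut as deposited. After quantile normalization 6 rat members (4.816%) and 3 mouse members (2.368%) did. In both species, 0 of 27 members tested met it as deposited (14 of 3453 genes). Fgf16 alone did after quantile normalization (29 of 3453 genes).

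Fgf16 lay on chrX:55906600-55914399 (rn5) and chrX:105759000-105767599 (mm10), and its rat promoter is printed above. Its rat H3K27me3 signal was 9.22, 13.6 and 9.27 in the vehicle libraries and 13.6, 6.27 and 7.87 in the TAK-418 libraries, which overlap. Its mouse H3K4me3 signal was 2.71, 2.00 and 2.59 in vehicle and 3.20, 3.28 and 3.81 in TAK-418, and its mouse H3K27me3 signal 7.82, 5.26 and 3.03 in vehicle and 2.82, 2.58 and 2.79 in TAK-418, both without overlap. In mouse the H3K27me3 change was -0.70 (SE 0.343, unadjusted p = 0.0413, limma adjusted p = 0.314), beside a median of -0.46 over all genes, and it was -0.30 after quantile normalization. The mouse H3K4me3 change of Fgf16 was 0.37, beside 0.13 over all genes, and 0.24 after quantile normalization. Against control the mouse H3K4me3 change of Fgf16 under TAK-418 was 0.045, beside a median of -0.37 over all genes. No test passed the threshold for H3K27me3 in either species.

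Bmp2 in mouse had 6.43, 4.94 and 5.23 of H3K4me3 in vehicle and 7.84, 6.80 and 8.34 in TAK-418, without overlap (0.41), and 10.3, 6.93 and 3.31 against 3.46, 4.41 and 3.80 of H3K27me3, with overlap (-0.58, SE 0.430). After quantile normalization these changes were 0.30 for H3K4me3 and -0.08 for H3K27me3, so most of the mouse Bmp2 difference in H3K27me3 was shared by all genes, whose median was -0.46. In rat it had 26.4, 27.6 and 32.7 against 52.7, 26.9 and 36.0 of H3K4me3 (0.36) and 18.2, 25.5 and 14.4 against 24.0, 11.0 and 13.0 of H3K27me3 (-0.30, SE 0.489), both with overlap, beside medians of 0.21 and 0.06 over all genes. After median centring, Bmp2 and Fgf11 were called higher in mouse H3K4me3 under TAK-418 against vehicle (0.585% of all genes), and so they were after quantile normalization (0.642%), where no member was as deposited. Bmp2 had 11.99, 7.74 and 7.44 of H3K4me3 in the mouse controls, and no TAK-418 library was above the highest of them.

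**Figure D5:**
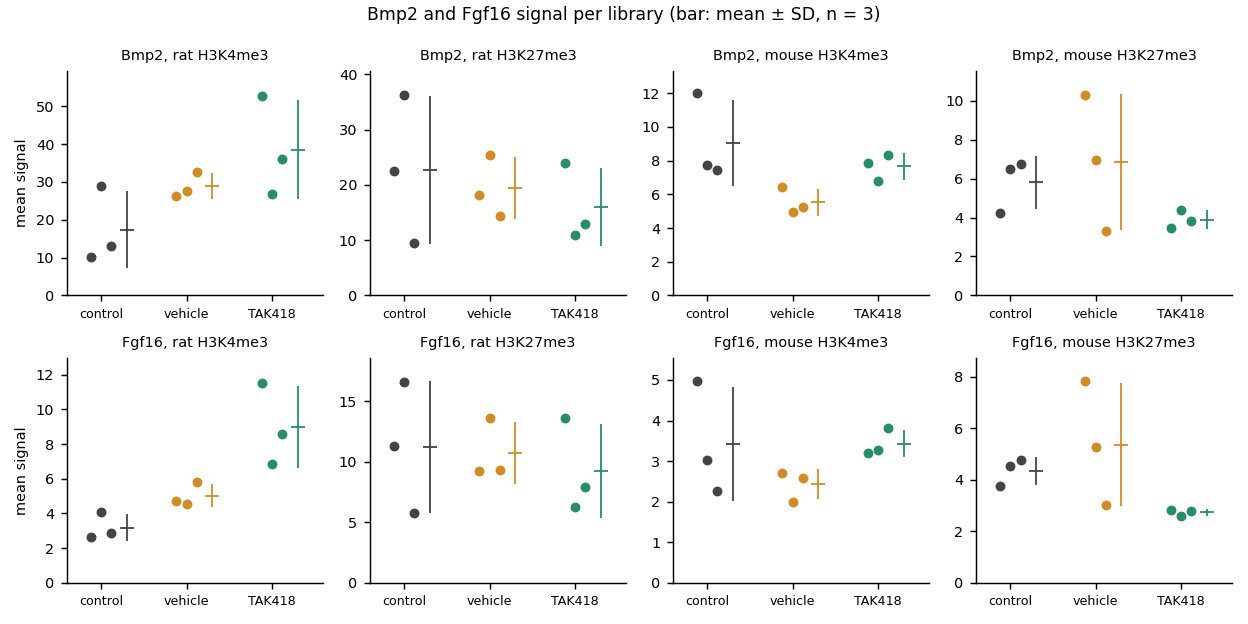
Signal (y axis, linear) of Bmp2 and Fgf16 in each library for H3K4me3 and H3K27me3 in rat and mouse, by group; points are libraries, bars the mean and error bars the SD (n = 3). Fgf16 H3K4me3 in rat lies at 4.54 to 5.79 in vehicle and 6.85 to 11.6 in TAK-418, and mouse H3K27me3 vehicle libraries are widely spread.

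Other genes of the pathways, from lists of receptors, antagonists, signal transducers and other TGF-beta ligands, are given beside the members by level and by calls. The median H3K27me3 percentile was 69.2 in rat and 59.1 in mouse for the FGF and BMP receptors and 69.3 and 60.3 for the extracellular and intracellular antagonists. It was 71.0 and 77.3 for the transducers and 78.9 and 88.6 for the other TGF-beta ligands, beside 84.88 and 86.78 for the members. The other TGF-beta ligands were thus near the members and above them in mouse. The median H3K4me3 percentile of the other TGF-beta ligands was 43.6 in rat and 37.5 in mouse, and that of the antagonists 64.6 and 52.0.

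In rat H3K4me3, vehicle against control called 2 of 23 antagonists higher, Fst (follistatin; 0.80, limma adjusted p = 0.0277) and Grem1 (a BMP trap; 0.78, limma adjusted p = 0.0421), and none of 15 receptors, 15 transducers or 10 other ligands, where 1.64% of all genes were called. TAK-418 against control called 15 of 15 receptors, 22 of 23 antagonists, 15 of 15 transducers and 9 of 10 other ligands, where 85.8% of all genes were called. In rat H3K9Ac, vehicle against control called 16 of 16 receptors, 23 of 24 antagonists, 15 of 15 transducers and 12 of 12 other ligands higher, where 96.5% of all genes were. TAK-418 against vehicle called 4 of 16 receptors lower, among them the activin receptor Acvr1c (-0.87, limma adjusted p = 0.0281), and 5 of 24 antagonists, led by Nog (noggin; -0.95, limma adjusted p = 0.0224) and Spry1 (an FGF feedback inhibitor; -0.95, limma adjusted p = 0.0228). None of 15 transducers and 1 of 12 other ligands, Inha (-0.76, limma adjusted p = 0.0487), was called there, where 10.4% of all genes were. In mouse H3K9Ac, vehicle against control called 14 of 17 receptors, 16 of 21 antagonists, 11 of 14 transducers and 11 of 12 other ligands lower, where 67.2% of all genes were, among them Eng (a co-receptor of endothelium; -0.80) and Id1 (a BMP target; -0.73), each at a limma adjusted p of 0.0290. Ligands, receptors and their inhibitors were thus called in the direction that most genes took in each of these comparisons.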

How the data were processed

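The data are 72 ChIP-seq libraries of brain cortex, with 4 marks and 3 groups of 3 libraries in each of 2 species. The authors deposited, per the file headers, the average and the highest signal and the presence of an interval, for each library and each of 72824 rat (rn5) or 60110 mouse (mm10) regions. Reads were aligned with BWA 0.7.12, per the submitters' processing notes. The interval caller, the bin width and the scaling between libraries are not stated in the sources used here, and no depth can be derived. The library descriptions carry a tag, dm, that the labels do not explain; whether added reference chromatin set the level of a library is not known, and if it did, centring and quantile normalization would remove that information.

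Each gene took its region with the highest mean signal. Signals were tested as log2(signal + 1) with limma 3.58.1 in R 4.3.3 (trended, robust variance), all 9 libraries of a mark in one fit, over genes with an interval in at least 3 libraries, at a Benjamini-Hochberg adjusted p of 0.05. The scripts were tested on simulated data. Named with values were the 3 highest and 3 lowest members per mark, the 2 with the smallest p per comparison and direction, relatives at opposite ends of a mark and members sharing a region, and from the pathway lists the 2 genes with the smallest p. The joint H3K4me3 and H3K27me3 pattern was chosen after values were seen, as were other members named for their role. The members and lists were chosen with earlier results of these data known. Alternatives were median centring, quantile normalization, a pseudocount of 0.5, no interval filter, the 6 libraries compared, a replicate block, the region nearest to the gene start and leaving out each library.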

Additional observations from a re-analysis of the deposited data

Results flagged for a closer look

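Some members were higher than control in every rat library and lower than control in every mouse library of the same comparison. The difference between species was not tested, the exposures differ (VPA in rat, poly I:C in mouse), and species and exposure cannot be told apart. For H3K4me3, vehicle against control, this held for 10 of the 35 members tested in both species: Bmp3, Bmp6, Fgf2, Fgf8, Fgf11, Fgf12, Fgf13, Fgf17, Gdf7 and Gdf11. For H3K4me3, TAK-418 against control, it held for 3 of 35, Bmp1, Fgf2 and Fgf18. For H3K9Ac it held for 21 of 29 members in vehicle against control, Bmp2, Fgf8, Fgf9 and Gdf11 among them, and for 13 of 29 in TAK-418 against control. The opposite pairing was not seen for any member in these 4 comparisons. Over all genes tested for H3K9Ac, vehicle against control, 94.3% were higher without overlap in rat and 75.8% lower without overlap in mouse, and for H3K4me3 the shares were 63.3% and 58.7%. For TAK-418 against control they were 51.8% and 75.4% for H3K9Ac, and 57.6% and 26.8% for H3K4me3. These are shares within each species. The share of all genes with both directions at once was not counted, so the pattern is not read as particular to the members.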

How the results depend on the processing

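Most calls were lost when libraries were brought to one level, and how the deposited values were scaled is unknown. Of 384 counts of called members under alternatives, 301 stayed within 1.5 times the reported count and 83 did not; of 1015 values of single members, 846 kept direction and side of the threshold, 84 lost a call, 27 gained one, 4 reversed and 54, not called in either, changed sign. The cause was not tested.

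For rat H3K4me3, vehicle against control (2 called), median centring gave 0, quantile normalization 0, no interval filter 0 and the 6 libraries compared 23. TAK-418 against vehicle (0) gave 1 with the 6 libraries, and TAK-418 against control (34) gave 0 after centring and 0 after quantile normalization. For rat H3K9Ac, vehicle against control (33) gave 8 after centring and 0 after quantile normalization. TAK-418 against vehicle (8) gave 4 after centring, 0 after quantile normalization, 5 with no filter and 0 with the 6 libraries, and TAK-418 against control (0) gave 13 with the 6 libraries. For rat H3K9me3, vehicle against control (2) gave 0 after centring, 0 after quantile normalization, 1 with no filter and 9 with the 6 libraries. TAK-418 against control (1) gave 0 after centring, 0 after quantile normalization, 2 with no filter, 0 with the 6 libraries and 0 at the nearest region. For mouse H3K4me3, TAK-418 against vehicle (0) gave 2 after centring, 2 after quantile normalization and 1 with the 6 libraries. For mouse H3K9Ac, vehicle against control (22) gave 0 after centring and 0 after quantile normalization, and for mouse H3K27me3 TAK-418 against control (0) gave 24 with the 6 libraries. After centring, the rat H3K9me3 changes in vehicle against control reversed to -0.13 for Fgf23 and -0.18 for Fgf6. The Fgf23 change in TAK-418 against control reversed to -0.21 after centring and -0.014 after quantile normalization.

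Leaving out 1 library at a time gave, for rat H3K4me3, 0 to 25 called members in vehicle against control, 0 to 3 in TAK-418 against vehicle and 15 to 35 in TAK-418 against control. For rat H3K9Ac the ranges were 29 to 33, 0 to 33 and 0 to 19, and for rat H3K9me3 0 to 10 in vehicle against control and 0 to 7 in TAK-418 against control. For mouse H3K4me3 they were 0 to 27 in vehicle against control and 0 to 2 in TAK-418 against vehicle. For mouse H3K9Ac they were 0 to 29 in vehicle against control and 0 to 30 in TAK-418 against control, and for mouse H3K27me3 0 to 31 in TAK-418 against vehicle. The highest counts came without rat control 2 or TAK-418 2 (H3K4me3), vehicle 3 (H3K9Ac) and TAK-418 1 or 3 (H3K9me3), and without mouse control 1 or 3 and H3K27me3 vehicle 3. All other comparisons stayed at 0. The share of all genes called with a library left out is not given here, so these ranges are not particular to the members.

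Whether the replicate numbers of the labels pair the libraries was not settled. In 1 of 24 pairs of groups every same-numbered correlation was above 0.1. For mouse H3K9me3 in control and TAK-418, for example, these correlations were 0.77, 0.64 and -0.59 for replicates 1 to 3. With 3 libraries in a group they cannot exclude a pairing. With the replicate number as a block, counts were 0 for rat H3K4me3 vehicle against control, 26 for rat H3K9Ac TAK-418 against vehicle, 1 and 0 for rat H3K9me3 vehicle and TAK-418 against control, and 30 for mouse H3K9Ac TAK-418 against control. The share of all genes called with the block is not given here, so these counts are not particular to the members.

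The members' median control percentile moved, at the region nearest to the gene start, to 40.74 (rat H3K4me3), 39.02 (rat H3K9Ac), 87.46 (rat H3K27me3), 38.55 (mouse H3K4me3) and 36.02 (mouse H3K9Ac). By the highest instead of the mean signal it was 41.29 (rat H3K9Ac), 84.6 (rat H3K27me3), 37.13 (mouse H3K4me3), 41.89 (mouse H3K9Ac), 85.51 (mouse H3K27me3) and 52.02 (mouse H3K9me3).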
